A study of Mus musculus with 51 samples.

Results

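The levels of 8 genes of the neurotrophin and GDNF families were followed through the paclitaxel time course, 8 of the 22609 genes in the count tables. They were chosen by symbol, as a list, with no measured value in the rule, although earlier results of these data were known. The list holds 4 ligands, Bdnf, Ntf3, Gdnf and Artn, and 4 receptors, Ntrk2, Ntrk3, Ret and Ngfr, and each of the 8 symbols was found in every table. Paclitaxel (PTX) is a cancer drug that binds microtubules and can leave patients with a painful neuropathy. The PTX mice received 2 injections of 2 mg per kg into the abdomen, 1 day apart, and the vehicle mice received vehicle. All were male C57 mice 8 to 12 weeks old, with no transgene or deletion named in the labels.

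Polyadenylated RNA was sequenced from dorsal root ganglia (DRG) of levels L3 to L5, where sensory neurons have their cell bodies, from punch biopsies of the hind paw, and from lumbar spinal cord. The 51 libraries formed 17 groups of 3. DRG and paw each had PTX groups at days 2, 7, 22 and 35 and 1 vehicle group at day 2, by the library titles, so that drug and day cannot be told apart there at days 7, 22 and 35. Spinal cord came as set A, with PTX and vehicle groups at days 1 and 7, and as set B, with PTX groups at days 1, 22 and 35 and no vehicle. Titles of the set A PTX libraries carry the word ipsi, although the drug was systemic, and do not say which side of the cord was taken for vehicle. The series text gives other days for some groups, and the titles were followed. The labels do not say if replicates are separate animals, so p-values measure the spread between libraries only.

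Neurotrophins are secreted proteins that keep sensory neurons alive during development and tune them in the adult. In the usual scheme BDNF signals through the receptor kinase TrkB, encoded by Ntrk2, and NT-3, encoded by Ntf3, through TrkC, encoded by Ntrk3, while p75, encoded by Ngfr, binds every neurotrophin. GDNF and artemin, encoded by Gdnf and Artn, bind GPI-linked co-receptors and then the kinase Ret. Target tissues such as skin and muscle supply several of these ligands to nerve endings whose cell bodies, with the receptor transcripts, lie in the DRG, and some DRG neurons also make BDNF and carry it to the spinal cord.

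Total gene counts per library were 18645710 to 27257659 in DRG, 13346971 to 21697763 in paw and 17661067 to 30247230 in cord. Values are given as CPM, gene counts scaled to a common library total, which are not scaled by gene length, so levels are compared between libraries and not between genes. Overlap between groups is read on these CPM, without the further library scaling (TMM) that edgeR's tests add. Differences are log2 fold changes with their standard errors from edgeR's quasi-likelihood test, and a gene is called when its p, adjusted by Benjamini-Hochberg over all genes tested, is under 0.05. In bulk tissue, fewer cells of a type and less RNA per cell cannot be told apart. Counts are per gene and add all its transcript forms together, for Ntrk2 and Ntrk3 as for the other listed genes.

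Of the 6 set A cord libraries of day 1, 5 held transcripts of sensory neurons, and Ngfr, Ret and Bdnf were high in the same 5. Scn10a, the gene of a sodium channel of nociceptors, stood at 755, 168 and 304 CPM in PTX replicates 1, 2 and 3 and at 245 and 222 CPM in vehicle replicates 2 and 3. It was at 0.383 CPM in vehicle replicate 1 and at 0.109 to 1.53 CPM in all 16 cord libraries outside the 5, against a mean of 1035 CPM over the 15 DRG libraries. The summed level of the 12 nociceptor genes listed was 823 to 2156 CPM in the day 1 PTX libraries and 1085 and 1220 CPM in vehicle replicates 2 and 3, against 238 CPM in vehicle replicate 1. In the same 5 libraries Mog, a myelin gene of oligodendrocytes, stood at 59.4 to 205 CPM, against 188 to 327 CPM in the other 16, with some overlap. Values of Ngfr, Ret and Bdnf in cord at day 1 are therefore given library by library, and the comparisons of DRG and paw with cord are given with and without these libraries.

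Among the ligands, Bdnf in DRG was level with vehicle at the early days and lay above it in most late libraries. It measured 25.5, 22.2 and 24.8 CPM in vehicle and 24.1, 25.4 and 23.0 CPM at day 2 of PTX. It measured 24.9, 29.5 and 27.6 CPM at day 7, 25.0, 50.0 and 38.9 CPM at day 22, and 42.5, 34.0 and 31.1 CPM at day 35. Each library of day 35 was above each vehicle library, whereas at day 22 replicate 1 lay within the vehicle range and the other replicates above it. The log2 fold change against vehicle was -0.02 ± 0.19 at day 2, 0.13 ± 0.19 at day 7, 0.64 ± 0.19 at day 22 and 0.56 ± 0.19 at day 35. None of these passed the edgeR test over all genes, with adjusted p of 0.433 at day 22 and 0.269 at day 35. Replicate 1 decided the day 22 value, since without it the log2 fold change was 0.87 with an edgeR adjusted p of 0.0214, and over the 11 alternatives run the adjusted p ranged from 0.0214 to 0.913. Leaving out 1 library gave 0 to 31 edgeR calls over all genes at day 22, against 0 with every library.

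In paw the same gene lay below vehicle at days 7 and 22. Bdnf measured 10.8, 10.9 and 12.5 CPM in vehicle and 15.7, 12.4 and 10.9 CPM at day 2 of PTX. It measured 9.98, 6.75 and 6.76 CPM at day 7, 7.46, 3.70 and 6.60 CPM at day 22, and 11.7, 9.81 and 7.70 CPM at day 35. All libraries of days 7 and 22 were below all vehicle libraries, and those of days 2 and 35 overlapped vehicle. The log2 fold change was 0.20 ± 0.26 at day 2, -0.59 ± 0.26 at day 7, -1.0 ± 0.26 at day 22 and -0.17 ± 0.26 at day 35. The day 22 difference missed the threshold in edgeR with an adjusted p of 0.0667, and passed it in DESeq2 at -1.04 with an adjusted p of 0.00433 and in edgeR without replicate 3 of day 22 at -1.12 with an adjusted p of 0.0410. Over its 11 alternatives the adjusted p ranged from 0.00433 to 0.254 and the fold change stayed between -1.18 and -0.75. Of all genes at day 22, edgeR called 170, and 0 to 1255 with 1 library left out, and DESeq2 called 1297.

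The difference of the Bdnf effects, DRG minus paw, was tested in 1 joint fit of both tissues. It was -0.25 ± 0.33 at day 2, 0.70 ± 0.34 at day 7, 1.66 ± 0.34 at day 22 and 0.73 ± 0.33 at day 35 on the log2 scale. At day 22 the unadjusted edgeR p was 5.1e-05 and the adjusted p 0.0624, so the difference between tissues was not called. DESeq2 called it at 1.67 with an adjusted p of 0.00215, and edgeR called it without replicate 1 of DRG day 22 at 1.89, without replicate 1 of paw day 22 at 1.85 and without replicate 3 of paw day 22 at 1.78. Over 17 alternatives it stayed between 1.40 and 1.89, with adjusted p of 0.00215 to 0.219. The libraries left out for these edgeR calls held the lowest DRG value of day 22, 25.0 CPM, and the higher paw values, 7.46 and 6.60 CPM. A larger difference without them follows from that choice. Of all genes, edgeR called 4 in this comparison, and 0 to 722 with 1 library left out, and DESeq2 called 260.

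**Figure D1:**
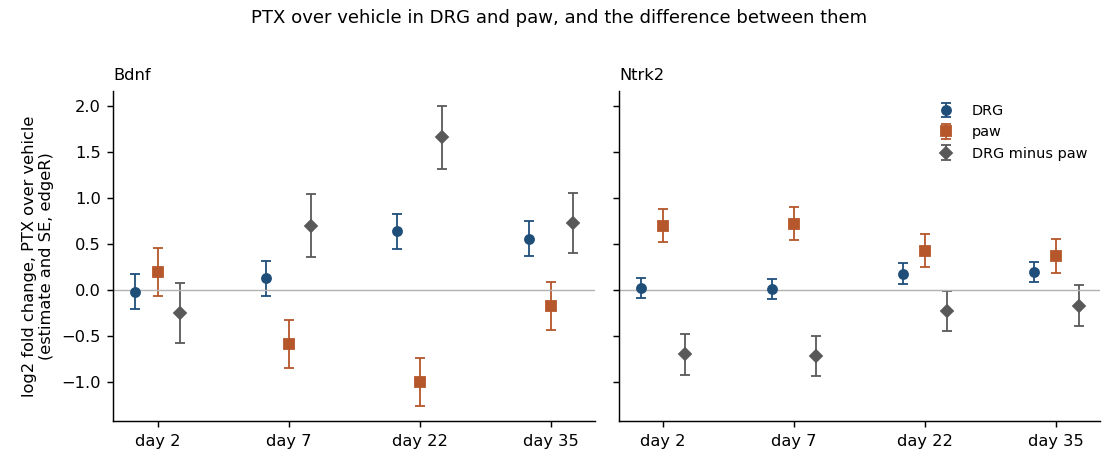
Log2 fold change of PTX over vehicle (vertical axis) at days 2, 7, 22 and 35 for Bdnf and Ntrk2 in DRG and in paw, with the difference of DRG minus paw, as edgeR estimates with SE bars from 3 libraries a group. Bdnf at day 22 lies at 0.64 in DRG and -1.0 in paw, and Ntrk2 at days 2 and 7 lies at 0.70 and 0.72 in paw and near 0 in DRG.

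The paw biopsies differed in make-up, and these values stand beside the paw results without their part having been tested. The summed level of 10 skeletal muscle genes was 11730 to 30060 CPM in vehicle and 7576 to 26160, 16970 to 23340, 16960 to 21580 and 1454 to 33680 CPM at days 2, 7, 22 and 35 of PTX. Fibroblast, mast cell and myeloid genes lay above vehicle, without overlap, at days 2, 7 and 22. The summed level of 8 fibroblast genes was 6148 to 7984 CPM in vehicle and 9020 to 9568, 9667 to 19490 and 12610 to 20160 CPM at these days. That of 7 mast cell genes was 30.8 to 70.6 CPM in vehicle and 99.8 to 143, 119.7 to 175 and 97.9 to 214 CPM, and that of 8 myeloid genes was 228 to 384 CPM in vehicle and 391 to 473, 546 to 825 and 458 to 1141 CPM. At day 22 the 10 adipocyte genes summed to 856 to 1181 CPM in PTX and 391 to 604 CPM in vehicle, and the 6 endothelial genes to 525 to 880 CPM in PTX and 402 to 519 CPM in vehicle. The 7 satellite glia genes summed to 826 to 908 CPM in vehicle and lay above it without overlap at days 2 and 22, at 924 to 1236 and 944 to 1189 CPM. The sum of 7 keratinocyte genes overlapped vehicle at days 2, 7 and 22. In paw 1 satellite glia gene was at 0 in every library, and no gene of the other lists in this paragraph was at 0 in any.

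Bdnf has several start sites, and gene counts add their transcripts together. RefSeq's table of promoters (GRCm38.p6, 250 bases before to 50 after a start) held 7 starts of Bdnf, 2 of Ntf3, 2 of Gdnf and 1 each of Artn, Ntrk2 and Ngfr. They were searched on both strands for the cAMP response element TGACGTCA and its core TGACG, to which CREB, a factor activated downstream of calcium and Trk signals, can bind. The full element was in none of these 14 windows and in 1.79% of all 32851 promoter windows. The core, which also lies within the full element, was in 1 of the 7 Bdnf windows, 1 of the 2 Gdnf windows and 20.8% of all windows. The Bdnf window with the core is shown as an example, and its capitals mark the core, read on the other strand as CGTCA. No link between the core and any Bdnf level was tested.
Bdnf, chr2:109692186-109692485, plus strand: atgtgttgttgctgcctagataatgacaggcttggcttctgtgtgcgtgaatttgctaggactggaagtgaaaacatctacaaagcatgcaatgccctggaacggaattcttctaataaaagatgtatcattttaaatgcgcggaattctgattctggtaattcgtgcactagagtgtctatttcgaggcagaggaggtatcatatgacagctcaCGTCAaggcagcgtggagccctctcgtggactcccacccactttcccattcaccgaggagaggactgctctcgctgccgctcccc

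Ntf3 was low in DRG and steadier in paw. In DRG it measured 1.28, 0.731 and 0.857 CPM in vehicle, 0.794, 0.579 and 0.793 CPM at day 2, and 0.590, 0.211 and 0.459 CPM at day 7, followed by 0.537 to 0.734 CPM at day 22 and 0.599 to 1.00 CPM at day 35. All 3 day 7 libraries were below all vehicle libraries, at counts as low as 4 reads. The day 7 log2 fold change was -1.22 ± 0.37 with an edgeR adjusted p of 0.104, and was not called under any of the 11 alternatives, whose adjusted p ran from 0.0791 to 0.387. In paw Ntf3 stayed between 3.09 and 4.66 CPM in all 15 libraries, every group overlapped vehicle, and the log2 fold changes lay between 0.01 and 0.14. The difference of DRG minus paw at day 7 was -1.38 ± 0.40 with an edgeR adjusted p of 0.116.

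Gdnf in DRG rested on a single library. It measured 0.161, 7.07 and 0.153 CPM at day 7 of PTX, against 0.379, 0.320 and 0.333 CPM in vehicle, and 0.132 to 0.783 CPM in the PTX libraries of the other days. Only replicate 2 of day 7 was high, and the other replicates of that day were below vehicle. The log2 fold change of 2.75 ± 1.14 at day 7 (edgeR adjusted p 0.184) became -1.14 with an adjusted p of 0.449 when replicate 2 was left out, and the adjusted p over 10 alternatives was 0.0567 to 0.449. The same library also stood apart in genes outside the list, chosen after their values were seen. Atf3, an injury-induced transcription factor gene, was at 16.4, 64.1 and 22.0 CPM in replicates 1, 2 and 3 of day 7, and Npy, a neuropeptide gene that DRG neurons switch on after nerve injury, at 0.697, 17.5 and 0.306 CPM.

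In paw, Gdnf lay between 2.30 and 4.93 CPM in all 15 libraries. It measured 3.44, 4.93 and 2.60 CPM at day 7 and 3.63, 4.67 and 2.75 CPM at day 22, against 2.78, 2.93 and 2.30 CPM in vehicle. The groups overlapped on each day, and log2 fold changes of 0.02 to 0.41 did not pass. Artn was scarce throughout. In DRG it had 0 to 9 reads in a library and fell under the count filter, so it was not tested there. In paw it measured 0.620, 1.29 and 0.558 CPM at day 7, against 0.432, 0.690 and 0.184 CPM in vehicle, a log2 fold change of 0.89 ± 0.55 (edgeR adjusted p 0.513) with groups that overlapped.

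**Figure D2:**
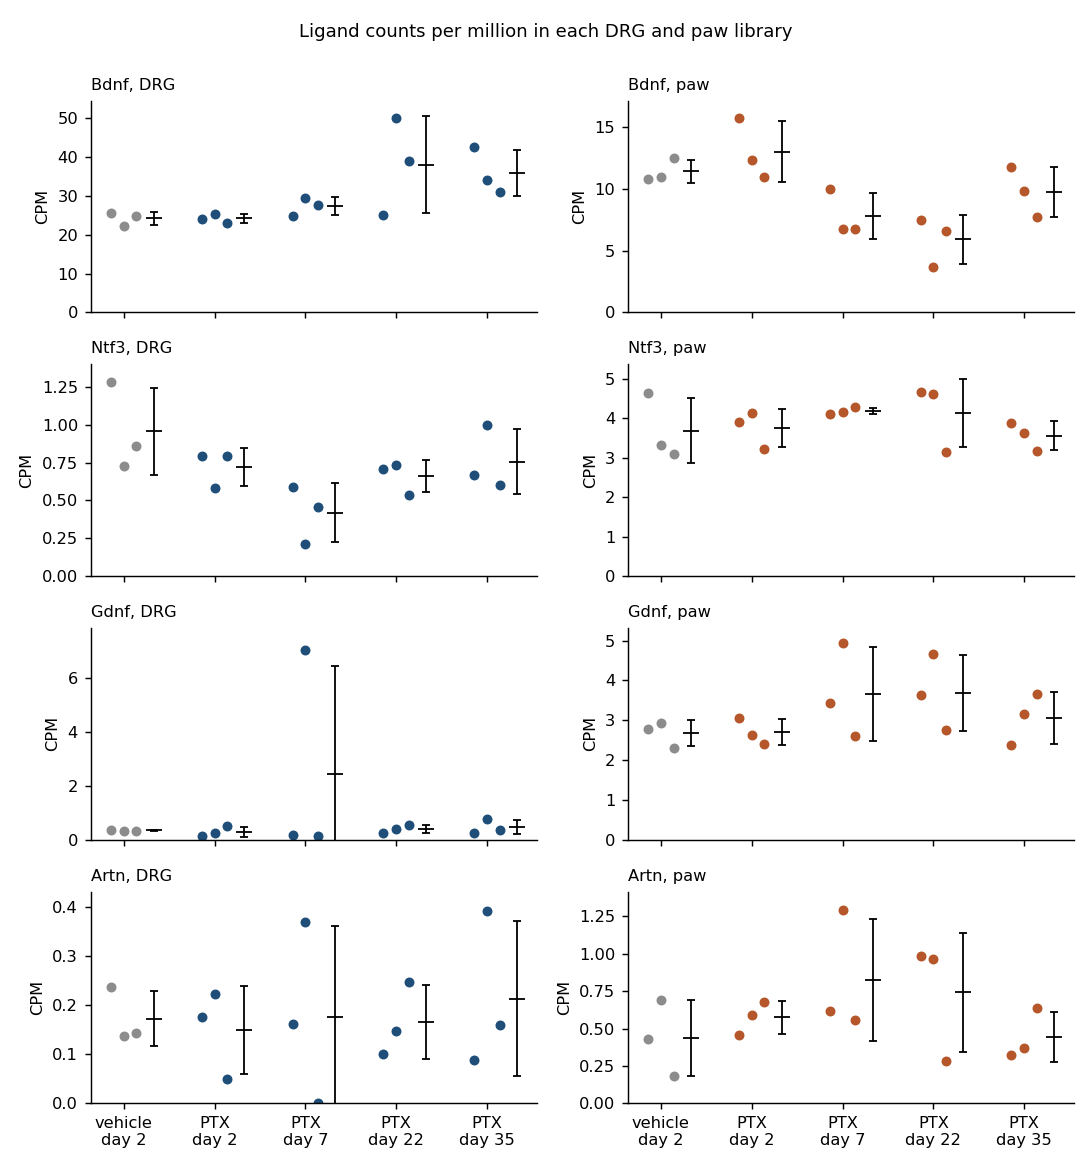
CPM of the 4 ligand genes (rows) in every DRG library (left) and paw library (right), in the order vehicle day 2 and PTX days 2, 7, 22 and 35; dots are libraries, and the bar beside them is the mean with its SD (n = 3), shown from 0 upward. Bdnf in DRG reaches 50.0 CPM at day 22, where Bdnf in paw lies at 3.70 to 7.46 CPM, and Gdnf in DRG is high in 1 library of day 7.

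Among the receptors, Ntrk2 in paw lay above vehicle at the early days of PTX. It measured 44.0, 49.0 and 56.9 CPM in vehicle, 71.5, 75.6 and 95.8 CPM at day 2 and 76.4, 82.1 and 96.4 CPM at day 7. It then measured 85.3, 81.4 and 46.3 CPM at day 22 and 60.2, 65.3 and 60.5 CPM at day 35. The libraries of days 2, 7 and 35 all lay above all vehicle libraries, and at day 22 replicate 3 lay within the vehicle range. The log2 fold change was 0.70 ± 0.18 at day 2, 0.72 ± 0.18 at day 7, 0.43 ± 0.18 at day 22 and 0.37 ± 0.18 at day 35, and edgeR called none of them, with adjusted p of 0.599, 0.122, 0.220 and 0.919. At day 7 DESeq2 called it at 0.69 with an adjusted p of 0.0114, as did edgeR fitted on the compared groups alone at 0.69 with an adjusted p of 0.0452, in a range of 0.0114 to 0.399 over 11 alternatives. Without replicate 3 of paw day 22, the day 22 value was 0.65 with an edgeR adjusted p of 0.0199, in a range of 0.0199 to 0.645. Leaving out 1 library gave 0 to 1255 edgeR calls over all genes at day 22. At day 7 DESeq2 called 630 of all genes and edgeR on the compared groups alone 203.

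In DRG, Ntrk2 spanned 137.7 to 191.6 CPM over the 15 libraries. The log2 fold changes were 0.02 and 0.01 at days 2 and 7 and 0.18 and 0.20 at days 22 and 35, each with an SE of 0.11. The 3 libraries of day 22, at 166 to 180.0 CPM, lay above the 138 to 164 CPM of vehicle, and those of the other days overlapped it. The difference of DRG minus paw for Ntrk2 was -0.70 ± 0.22 at day 2 and -0.72 ± 0.22 at day 7, with edgeR adjusted p of 0.769 and 0.133.

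Ntrk3 was above vehicle in every PTX group of DRG. It measured 26.0, 34.6 and 33.6 CPM in vehicle, 39.8, 41.8 and 44.2 CPM at day 2 and 45.1, 38.8 and 40.9 CPM at day 7. It measured 36.2, 34.7 and 40.9 CPM at day 22 and 37.0, 39.4 and 35.0 CPM at day 35. In CPM no PTX library overlapped vehicle, although the gap at day 22 was small, at 34.67 CPM in PTX against 34.62 CPM in vehicle. Overlap after edgeR's library scaling was not checked. All 4 comparisons share the same 3 vehicle libraries, of which replicate 1 is the lowest of the 15. The log2 fold changes were 0.40, 0.36, 0.23 and 0.24, each with an SE of 0.10, and edgeR's adjusted p was 0.642, 0.0993, 0.555 and 0.357. DESeq2 called day 7 at 0.36 with an adjusted p of 0.0383, in a range of 0.0383 to 0.387 over 11 alternatives. In paw Ntrk3 lay between 4.88 and 8.99 CPM, overlapped vehicle on each day, and had log2 fold changes of -0.11 to 0.13.

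Ret in DRG lay below vehicle at day 2 of PTX. It measured 789, 823 and 816 CPM at day 2 of PTX, against 889, 863 and 949 CPM in vehicle, without overlap, and 821, 717 and 886 CPM at day 7, which overlapped vehicle. The log2 fold changes were -0.17 ± 0.09 and -0.20 ± 0.09 at days 2 and 7, and 0.02 and 0.01 at days 22 and 35, with edgeR adjusted p of 0.644, 0.186, 0.954 and 0.972. At day 2 the summed level of 9 neuron genes was also lower without overlap, at 7511 to 8046 CPM in PTX and 8154 to 10050 CPM in vehicle. The 9 are not particular to sensory neurons, since they summed to 4973 to 5546 CPM in vehicle cord of day 7. The sum of the 12 nociceptor genes in DRG at day 2 was 2939 to 3185 CPM in PTX and 3171 to 3586 CPM in vehicle. The part of either sum in the Ret values was not tested. In paw Ret measured 27.2, 22.9 and 30.01 CPM at day 7, above the 19.8, 21.4 and 15.5 CPM of vehicle, a log2 fold change of 0.45 ± 0.33 with an edgeR adjusted p of 0.592. At day 22 it measured 23.7, 44.2 and 21.3 CPM, a log2 fold change of 0.58 ± 0.32 with an edgeR adjusted p of 0.364, and replicate 3 lay within the vehicle range. Replicate 3 of PTX day 2 and replicate 1 of day 35 were the paw libraries with the most Scn10a, 12.7 and 11.8 CPM against at most 5.98 CPM in the others, and they held 29.1 and 28.9 CPM of Ret and 18.4 and 15.1 CPM of Ngfr. The highest paw levels of Ret, 44.2 CPM in replicate 2 of day 22, and of Ngfr, 35.1 CPM in replicate 2 of day 7, were in libraries with 2.31 and 2.41 CPM of Scn10a. The sum of the nociceptor genes in paw was 20.4 to 23.3 CPM in vehicle and 23.9 to 61.1, 26.9 to 35.6 and 26.6 to 29.1 CPM at days 2, 7 and 22 of PTX. The part of nerve tissue in these paw values was not tested.

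Ngfr in DRG lay between 632 and 908 CPM in all 15 libraries and overlapped vehicle on each day. Its log2 fold changes were -0.16, -0.11, 0.09 and 0.17 at days 2, 7, 22 and 35, each with an SE of 0.11. In paw it measured 13.99, 35.1 and 12.7 CPM at day 7, against 10.6, 10.6 and 8.85 CPM in vehicle, without overlap. The log2 fold change was 0.99 ± 0.44 with an edgeR adjusted p of 0.334, and 1 library, replicate 2, held most of the difference. That library also had the highest Artn and Gdnf of all paw libraries.

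**Figure D3:**
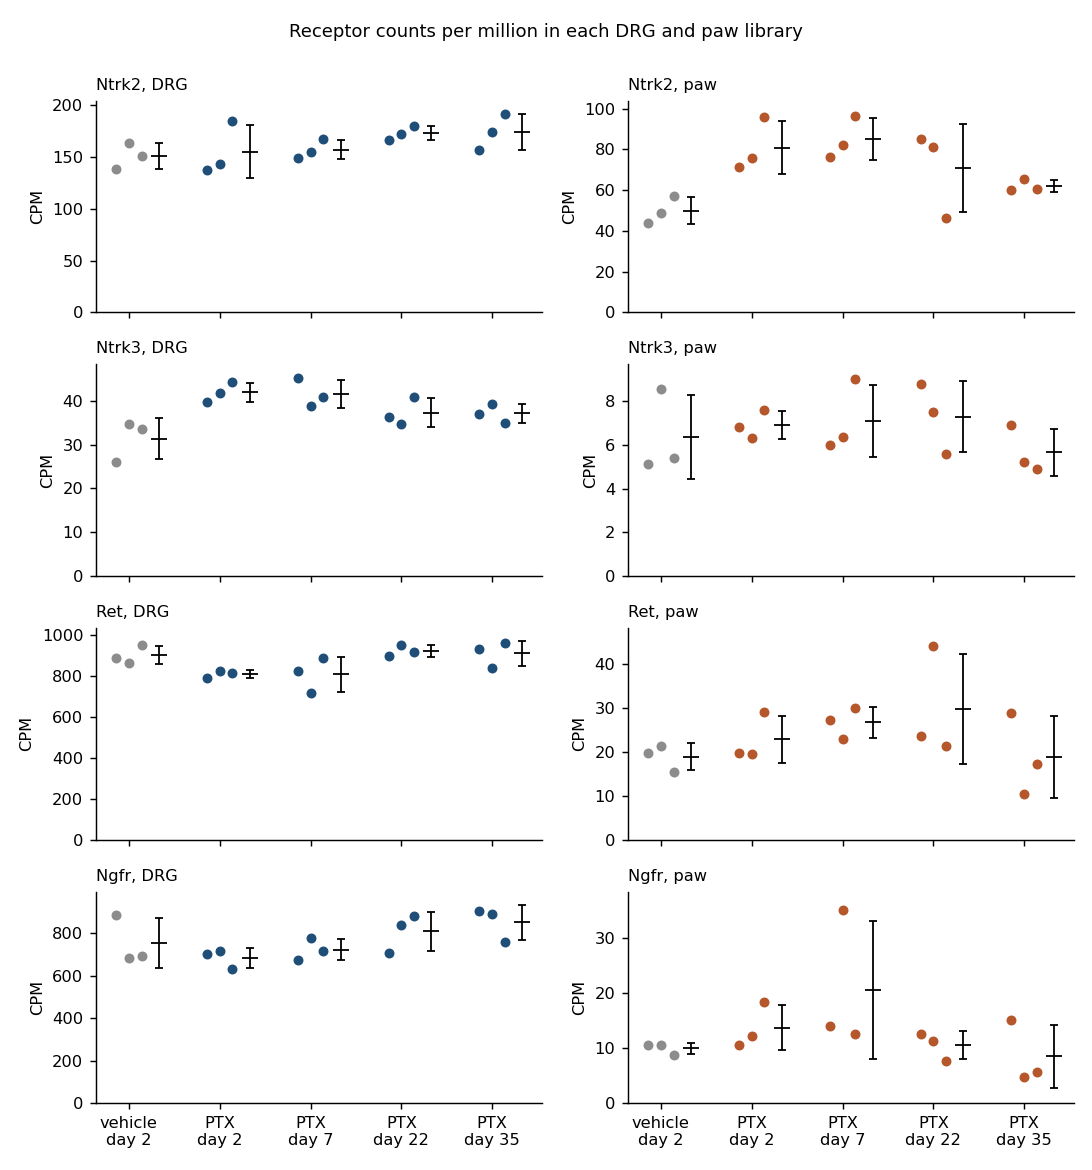
CPM of the 4 receptor genes (rows) in every DRG library (left) and paw library (right), in the order vehicle day 2 and PTX days 2, 7, 22 and 35; dots are libraries, and the bar beside them is the mean with its SD (n = 3). Ntrk2 in paw lies at 71.5 to 96.4 CPM at days 2 and 7 of PTX against 44.0 to 56.9 CPM in vehicle, and Ntrk3 in DRG lies above vehicle on each day.

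Over the list as a whole, edgeR called 0 of the 7 genes tested in DRG at days 2, 7, 22 and 35, where it called 0%, 0.157%, 0% and 0.209% of all 15333 genes tested. At an unadjusted p under 0.05 the counts were 1, 4, 2 and 2 of 7, against 7.62%, 22.4%, 8.85% and 13% of all genes, and DESeq2 called 0, 1, 0 and 0, against 0%, 5.67%, 0.285% and 1.13% of the genes to which it gave an adjusted p. The listed genes with no overlap were 1, 1, 2 and 2 on the higher side, against 9.48%, 14.3%, 9.06% and 10.6% of all genes, and 1, 1, 0 and 0 on the lower side, against 3.37%, 5.02%, 6.44% and 8.84%. The median log2 fold change of the 7 was -0.16, 0.01, 0.18 and 0.20 at these days, and that of all genes was within 0.003 of 0. At day 7, where 4 of 7 were under an unadjusted 0.05, the share of all genes was itself 22.4%, and the 4 were Ntf3 and Ret on the lower side and Ntrk3 and Gdnf on the higher.

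In paw, edgeR called 0 of 8 at each day, where it called 0%, 0%, 1.12% and 0% of all 15199 genes tested. At an unadjusted p under 0.05 the counts were 1, 3, 2 and 0 of 8, against 7.36%, 13.8%, 18.7% and 5.31% of all genes, and DESeq2 called 0, 1, 1 and 0, against 0.254%, 4.33%, 8.3% and 0.129% of all genes. Without overlap there were 1, 3, 0 and 1 listed genes on the higher side, against 8.38%, 19.3%, 17.7% and 3.95% of all genes, and 0, 1, 1 and 0 on the lower side, against 8.16%, 6.81%, 7.14% and 11.4%. The median log2 fold change of the 8 was 0.24, 0.43, 0.27 and 0.03, and that of all genes was within 0.015 of 0. Any difference among the 4 PTX days was called by edgeR for 0 of 7 in DRG and 0 of 8 in paw, where 0.0196% and 0% of all genes were called. At an unadjusted p under 0.05 it held for 4 of 7 in DRG and 1 of 8 in paw, against 9.33% and 17.9% of all genes. The 4 in DRG were Bdnf, Gdnf, Ret and Ngfr, of which Gdnf was high in a single library. DESeq2 called 0 in DRG and Bdnf alone in paw, against 1.11% and 11.2% of all genes. The difference of DRG minus paw was called for 0 of 8 at each day by edgeR, against 0%, 0.196%, 0.0245% and 0.0184% of all 16304 genes tested, with 1, 5, 1 and 1 of 8 under an unadjusted 0.05, against 6.06%, 13.7%, 13.3% and 7.43%. DESeq2 called 0, 0, 1 and 0 of these differences, against 0%, 2.29%, 1.76% and 0.086% of all genes. The 5 under an unadjusted 0.05 at day 7 were Bdnf and Gdnf, higher in DRG, and Ntf3, Ntrk2 and Ngfr, lower in DRG. Gdnf there rested on 1 DRG library, and its value of 2.29 ran from -1.55 to 2.84 over 17 alternatives. Ngfr rested mostly on 1 paw library, and its value of -1.12 ran from -1.38 to -0.49.

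The ligands in paw and their receptors in DRG are set side by side here, since target tissue is one source of ligand for the neurons of the ganglion. The paw biopsies held muscle as well as skin transcripts. Bdnf in paw averaged 11.4 ± 0.941 CPM in vehicle and 13.0 ± 2.46, 7.83 ± 1.86, 5.92 ± 1.97 and 9.75 ± 2.02 CPM at days 2, 7, 22 and 35 of PTX (SD, n = 3 each), while Ntrk2 in DRG averaged 151.0 ± 12.8 CPM in vehicle and 155 ± 26.0, 157 ± 9.20, 173 ± 6.82 and 174 ± 17.5 CPM. Ntf3 in paw averaged 3.68 ± 0.829 CPM in vehicle and 3.76 ± 0.477, 4.19 ± 0.0824, 4.14 ± 0.870 and 3.56 ± 0.360 CPM, while Ntrk3 in DRG averaged 31.4 ± 4.71 CPM in vehicle and 42.0 ± 2.20, 41.6 ± 3.23, 37.3 ± 3.27 and 37.1 ± 2.17 CPM. Gdnf in paw averaged 2.67 ± 0.327 CPM in vehicle and 2.69 ± 0.326, 3.66 ± 1.18, 3.69 ± 0.957 and 3.06 ± 0.650 CPM, while Ret in DRG averaged 900 ± 44.0 CPM in vehicle and 809 ± 18.1, 808 ± 85.2, 922 ± 28.2 and 909 ± 63.0 CPM. Artn in paw, whose kinase is also Ret, averaged 0.435 ± 0.253 CPM in vehicle and 0.575 ± 0.108, 0.8235 ± 0.407, 0.743 ± 0.397 and 0.442 ± 0.168 CPM. Ngfr in DRG averaged 754 ± 116 CPM in vehicle and 684 ± 45.8, 723 ± 50.0, 810 ± 91.9 and 853 ± 81.6 CPM. Paw and DRG libraries carry no label that ties them to the same mouse, so no correlation between the tissues is given.

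In spinal cord the highest levels of Ngfr, Ret and Bdnf were in set A at day 1. Ngfr measured 477, 194 and 318 CPM in the PTX libraries of day 1, against 16.5, 294 and 280 CPM in vehicle, and 5.18 to 15.2 CPM in the 15 cord libraries of all other groups. Ret measured 595, 288 and 392 CPM in the PTX libraries, against 109, 358 and 335 CPM in vehicle, and 111 to 202 CPM in the other groups. Bdnf measured 15.7, 13.8 and 17.0 CPM in the PTX libraries, against 6.96, 16.1 and 14.9 CPM in vehicle, and 4.96 to 10.8 CPM in the other groups. The high libraries are the 5 with sensory neuron transcripts, and they fall in both groups of the comparison. In PTX replicate 1 Ngfr stood 61.9% and Ret 61.3% of the way from the mean of the other 16 cord libraries to the mean of DRG, beside 72.9% for Scn10a, 70.7% for Avil and 33.2% for Bdnf. In PTX replicates 2 and 3 and vehicle replicates 2 and 3, Bdnf stood at 23.9%, 39.3%, 34.8% and 29.1%. In the same order Scn10a stood at 16.2%, 29.3%, 23.7% and 21.4%, and Avil at 28.4%, 45.7%, 44.4% and 41.4%. Ngfr stood at 24.6%, 40.9%, 37.7% and 35.9%, and Ret at 18.2%, 32.7%, 28.0% and 24.7%. Ntrk2 and Ntrk3, more abundant in cord than in DRG, stood at 248 to 328 CPM and 57.9 to 93.4 CPM in the 5, against 360 to 488 CPM and 87.1 to 109 CPM in the other 16, with an overlap in Ntrk3.

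**Figure D4:**
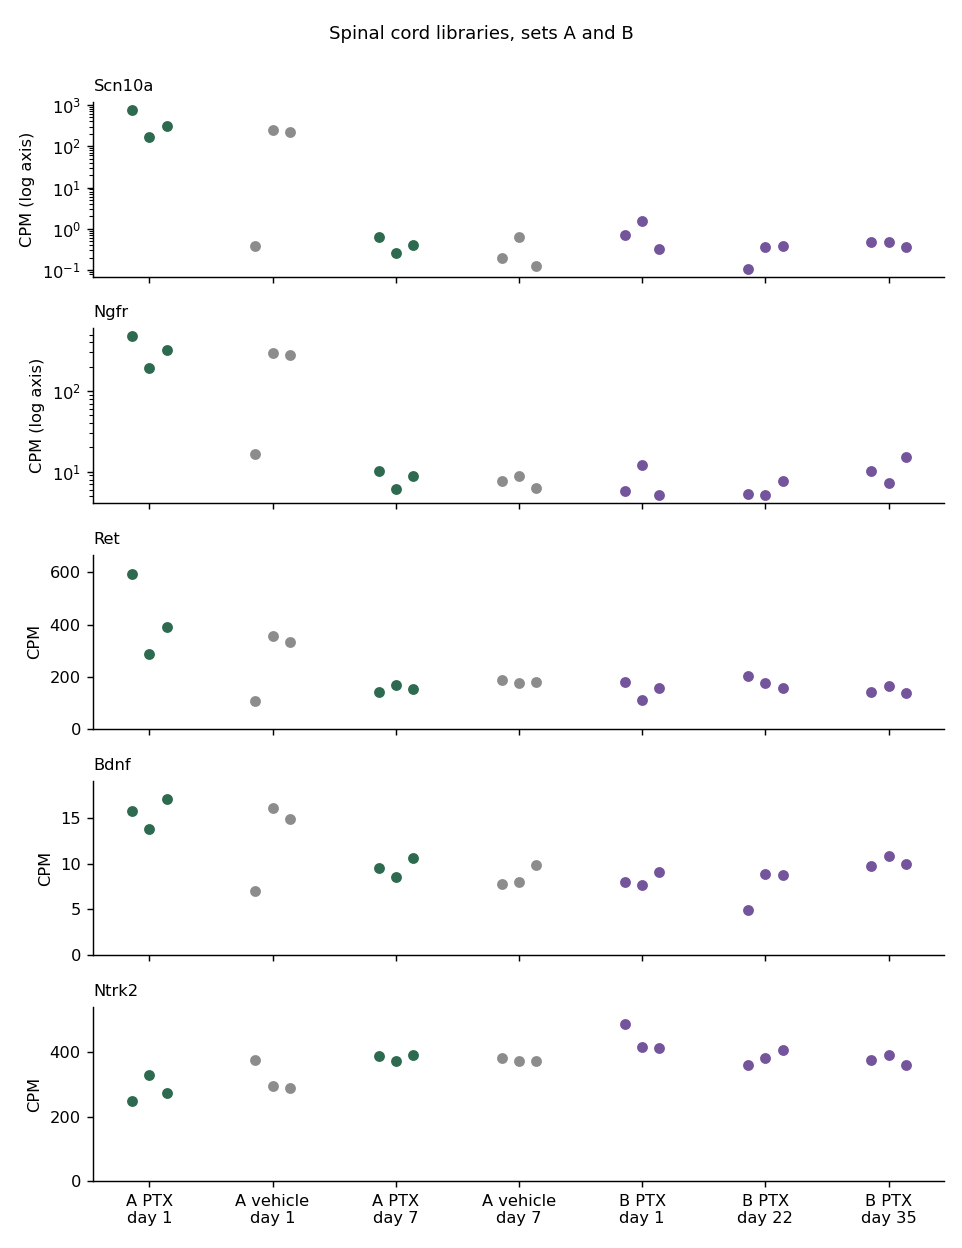
CPM in every spinal cord library by set, treatment and day, for Scn10a and Ngfr (log axes) and Ret, Bdnf and Ntrk2 (linear axes from 0); each dot is 1 library. The 5 libraries of set A day 1 with 168 to 755 CPM of Scn10a are also those with 194 to 477 CPM of Ngfr and 288 to 595 CPM of Ret.

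The comparison of PTX with vehicle at day 1 of set A gave log2 fold changes of 0.76 ± 0.63 for Ngfr, 0.69 ± 0.33 for Ret and 0.31 ± 0.24 for Bdnf, and edgeR called 0 of the 7 genes tested, against 0% of all 15815 genes. Every listed gene overlapped between these groups, where 7.34% of all genes were higher and 10.1% lower without overlap. Without the 5 libraries no PTX library of that day remains, so no value can be given. At day 7 of set A, where Scn10a was at most 0.645 CPM, edgeR again called 0 of 7, against 0% of all genes. The fit still held the 5 libraries, which enter its estimate of the spread at day 7 too. At an unadjusted p under 0.05 there were 0 of 7 at both days, against 21.5% and 15.9% of all genes, and DESeq2 called 0 at both, against 1.13% and 4.07%. Ret at day 7 measured 144, 169 and 155 CPM in PTX libraries, against 187, 178 and 179 CPM in vehicle, without overlap, with a log2 fold change of -0.29 ± 0.33. Fitted on those 6 libraries alone, it was -0.30 with an edgeR adjusted p of 0.0286, within a range of 0.0286 to 0.895 over 12 alternatives. That fit called 1739 of all genes, against 0 in the fit of all cord libraries. Ntrk3 at day 7 measured 97.5, 97.7 and 100.3 CPM in PTX libraries, against 108.7, 103.7 and 106.7 CPM in vehicle, also without overlap, with a log2 fold change of -0.18 ± 0.13. With the 5 libraries left out of the cord fit, Ret read -0.30 and Ntrk3 -0.19, with edgeR adjusted p of 0.332 and 0.222. Ret and Ntrk3 were the 2 of 7 on the lower side without overlap, against 11.9% of all genes. None was on the higher side, against 26.8%.

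Within set B, which has no vehicle, days 22 and 35 were compared with day 1. Ntrk2 measured 488, 417 and 413 CPM at day 1, 362, 381 and 406 CPM at day 22 and 375, 391 and 360 CPM at day 35, and its log2 fold changes were -0.22 ± 0.10 and -0.28 ± 0.10. Artn measured 0.626, 1.02 and 0.777 CPM at day 1, 0.491, 0.508 and 0.376 CPM at day 22 and 0.561, 0.536 and 0.556 CPM at day 35, with log2 fold changes of -0.82 ± 0.29 and -0.59 ± 0.29. Both genes lay lower than at day 1 without overlap at both days, and neither was called, with edgeR adjusted p of 0.377 and 0.819 for Ntrk2 and 0.266 and 1.0 for Artn. These fits also held the 5 set A libraries with sensory neuron transcripts. Without the 5, Ntrk2 read -0.20 and -0.26, with edgeR adjusted p of 0.255 and 0.430. Artn then read -0.80 and -0.57, with edgeR adjusted p of 0.219 and 0.804. In the fit of all cord libraries, edgeR called 0 of 7 at each day, against 1.09% and 0.0885% of all genes. At an unadjusted p under 0.05 there were 1 and 1 of 7, against 13.2% and 5.22%, and DESeq2 called 0, against 2.5% and 0.319%. On the lower side without overlap were 3 of the 8 listed genes at day 22, the third being Gdnf, too low to be tested, and 3 at day 35, the third being Ntf3, against 6.7% and 2.4% of all genes. On the higher side were 0 and 1, the 1 being Bdnf, against 7.69% and 6.54%.

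Between the PTX groups of day 1, set B differed from set A in 5 of 7 listed genes, where edgeR called 32.9% of all genes. Ngfr was lower in set B by a log2 fold change of -5.41 ± 0.78, Ret by -1.49 ± 0.34 and Bdnf by -0.88 ± 0.25, with edgeR adjusted p of 0.000793, 0.00464 and 0.0130. Ntrk2 was higher by 0.66 ± 0.10 and Ntrk3 by 0.37 ± 0.13, with adjusted p of 0.000841 and 0.0393. All 3 set A libraries here are among the 5 with sensory neuron transcripts, so set and that content cannot be told apart. Leaving out set A replicate 1 brought Ntrk3 to 0.22, with an edgeR adjusted p of 0.223, and it also lost the call without set A replicate 3 or set B replicate 1. With only the groups compared, Ntrk2 at 0.63, Ret at -1.52 and Ntrk3 at 0.34 lost their calls, with edgeR adjusted p of 0.0829, 0.0660 and 0.256, each the highest over 11 alternatives, whose lowest were 3.44e-08, 8.87e-05 and 0.00437.

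The vehicle libraries give the resting distribution of the system. All 8 genes differed between vehicle DRG and vehicle paw by edgeR's test, in a comparison that called 77% of all 16391 genes. The receptors were on the DRG side. Ngfr averaged 754 ± 116 CPM in DRG and 10.03 ± 1.03 CPM in paw (SD, n = 3 each), a log2 fold change of 6.29 ± 1.75, and Ret averaged 900 ± 44.0 CPM in DRG and 18.9 ± 3.07 CPM in paw, a log2 fold change of 5.63 ± 0.44. Ntrk3 was higher in DRG by 2.36 ± 0.26 and Ntrk2 by 1.64 ± 0.15. Of the ligands, Bdnf was higher in DRG by 1.13 ± 0.29, at 24.2 ± 1.74 CPM and 11.4 ± 0.941 CPM in paw.

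The 3 other ligands were on the paw side. Gdnf was at 0.344 ± 0.0313 CPM in DRG and 2.67 ± 0.327 CPM in paw, a log2 fold change of -2.88 ± 0.32, and Ntf3 at 0.956 ± 0.288 CPM in DRG and 3.68 ± 0.829 CPM in paw, one of -1.88 ± 0.35. Artn was at 0.172 ± 0.0562 CPM in DRG and 0.435 ± 0.253 CPM in paw, one of -1.23 ± 0.47 with an edgeR adjusted p of 0.0313. The Artn call was lost in DESeq2, at -1.29 with an adjusted p of 0.0667, and without DRG vehicle replicate 2 or 3 or paw vehicle replicate 1 or 2, where the values lay between -1.26 and -0.75. It was also lost when the vehicle fit held cord of day 7 only, at -1.22 with an edgeR adjusted p of 0.0513. Library values of Artn overlapped between the tissues, at 0.137 to 0.237 CPM in DRG and 0.184 to 0.690 CPM in paw.

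**Figure D5:**
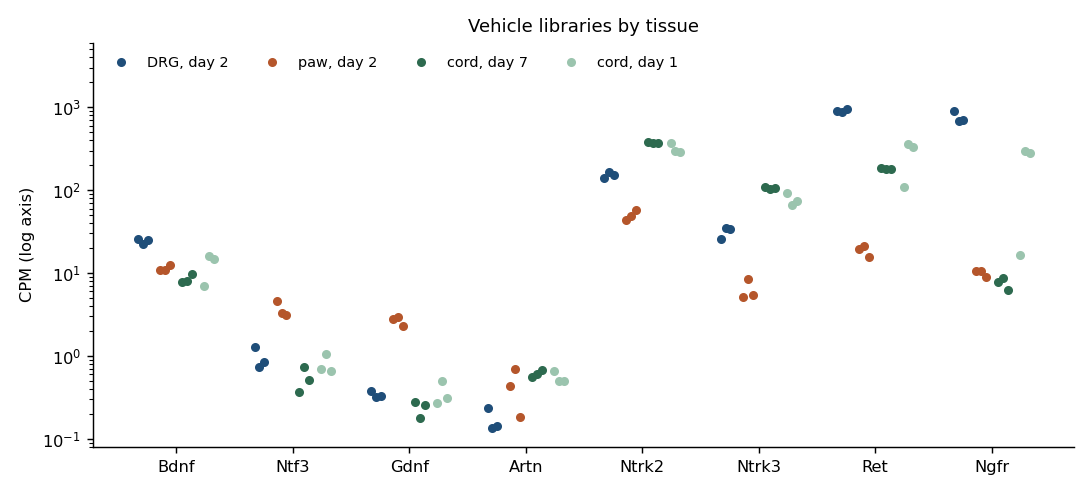
CPM (log axis) of each listed gene in the vehicle libraries of DRG and paw (day 2) and of spinal cord at day 7 and day 1; each dot is 1 library. Ret and Ngfr lie at 682 to 949 CPM in DRG and 8.85 to 21.4 CPM in paw, and at day 1 of cord 2 of 3 libraries lie far above the third in Ngfr.

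Against vehicle cord, DRG differed in 6 of 8 genes with all 6 cord libraries of days 1 and 7, where edgeR called 56.9% of all genes. Ngfr was higher in DRG by 2.98 ± 1.16 with all 6, by 6.37 without the 2 vehicle libraries that held sensory neuron transcripts and by 6.69 with the cord of day 7 only, where it was at 7.57 ± 1.26 CPM in cord. The Ngfr call with all 6, at an edgeR adjusted p of 0.0475, was lost without the count filter, with only the groups compared, and without any 1 of the 3 DRG libraries, of the 3 cord libraries of day 7 or replicate 1 of cord day 1. Left out singly, these 7 libraries brought the value to between 2.73 and 3.06, and over 16 alternatives the adjusted p ran from 1.54e-10 to 0.0940. Ret was higher in DRG by 2.09 ± 0.30, 2.54 and 2.37 in the same order, and Bdnf by 1.27 ± 0.24, 1.65 and 1.55. Ntrk2 and Ntrk3 were on the cord side, by -1.12 ± 0.14 and -1.47 ± 0.22 with all 6, as was Artn by -1.64 ± 0.40. Their values without the 2 libraries and with day 7 only were -1.22 and -1.25 for Ntrk2, -1.63 and -1.70 for Ntrk3 and -1.73 and -1.74 for Artn. Ntf3 was not called with all 6, at 0.59 ± 0.31 with an edgeR adjusted p of 0.125. It was called without the 2 libraries at 0.81, with day 7 only at 0.86 and without vehicle replicate 2 of day 1 alone at 0.77, and over 16 alternatives the adjusted p ran from 0.0393 to 0.470. Both ways of leaving out cord libraries were chosen after the data were seen.

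Paw differed from vehicle cord in 5 of 8 genes, where edgeR called 81.2% of all genes. Gdnf was higher in paw by 3.16 ± 0.25 and Ntf3 by 2.47 ± 0.28, and Ntrk2, Ntrk3 and Ret were lower in paw by log2 fold changes of -2.77 ± 0.15, -3.83 ± 0.26 and -3.54 ± 0.38. Without the 2 libraries and with day 7 only, the values were 3.47 and 3.48 for Gdnf, 2.70 and 2.75 for Ntf3, -2.86 and -2.89 for Ntrk2, -3.98 and -4.05 for Ntrk3, and -3.08 and -3.25 for Ret. Ngfr read -3.30 ± 1.45 with all 6 cord libraries, 0.09 without the 2 and 0.41 with day 7 only, the last with an edgeR adjusted p of 0.0239, so its order between paw and cord rests on which cord libraries are used. Bdnf read 0.14 ± 0.25 with all 6, uncalled, and was called without the 2 at 0.53 and with day 7 only at 0.43, with edgeR adjusted p of 0.00563 and 0.00842. The order of vehicle levels was therefore DRG above cord above paw for Ret, cord above DRG above paw for Ntrk2 and Ntrk3, and paw above both others for Gdnf and Ntf3, with DRG and cord not separated for Gdnf and separated for Ntf3 in some settings and not in others.

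The pathway around the listed genes was read through 5 lists of partners, written with earlier results of these data known, of which 109 genes were in the tables. They covered other family ligands and co-receptors (13 genes), p75 partners (15), neurotrophin processing (12), Trk and Ret adaptors and kinases (44) and Trk and Ret response genes (25). In the 8 comparisons of PTX with vehicle in DRG and paw, edgeR called 0 of them except in paw at day 22. At an unadjusted p under 0.05 there were 13, 21, 18 and 19 of the 102 tested in DRG at days 2, 7, 22 and 35, and 4, 22, 28 and 5 of the 101 tested in paw, beside the shares of all genes given above. There Sdc3, a syndecan that binds GDNF, was higher by 1.07 ± 0.23 with an adjusted p of 0.0481, and Sh2b3, an adaptor of receptor kinases, by 0.56 ± 0.12 with an adjusted p of 0.0478. In set B cord at day 22 against day 1, the immediate early genes Maff and Nr4a1 were lower by -1.84 ± 0.25 and -1.22 ± 0.28 on the log2 scale, with edgeR adjusted p of 0.00104 and 0.0484. The count of genes called in paw at day 22 depended strongly on the tool and on single libraries.

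The genes whose level went most closely with each listed gene were found by Pearson correlation of log2 CPM. The libraries were those of the tissue where the listed gene was highest. Tables of day 35 and of set B named their summary lines in another style, so shared processing is not assured. The genes shown are the highest of many compared, so high values are in part due to that choice, and they serve as a description only. Bdnf in DRG (15 libraries) went with Etv5 at 0.950, Loxl4 at 0.933 and Kcnv1 at 0.918. Ret in DRG went with Kcnc4 at 0.928, Jakmip1 at 0.914 and Syt6 at 0.912, and Ngfr in DRG with Vgf at 0.910, Mex3d at 0.902 and Nlgn2 at 0.899. In paw (15 libraries) Gdnf went with Ccl7 at 0.823, Sdf2l1 at 0.820 and Inhba at 0.814, Ntf3 with Zfp41 at 0.819, Acot8 at 0.810 and Kifc1 at 0.806, and Artn with Slc35a4 at 0.884, Lrfn3 at 0.866 and Akt2 at 0.863. In cord (21 libraries, the 5 with sensory neuron transcripts included) Ntrk2 went with Spon1 at 0.949, Slc38a1 at 0.939 and Dlg2 at 0.931, and Ntrk3 with Sall1 at 0.962, Abat at 0.961 and Slc12a5 at 0.957.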

How the data were processed

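The authors deposited 1 table of raw counts per gene for each of the 51 libraries. Per the labels' protocols, about 500 ng of total RNA went into a stranded kit for polyadenylated RNA, read as single reads of 50 bases. The submitters' processing notes name bcl2fastq, TopHat2, HTSeq and the mm9 build, without versions. The summary lines of each table were left out of library sizes and tests. Their names were written in another style in 15 of the 51 tables, all of day 35 of DRG and paw and all of set B, so any difference in counting cannot be told apart from that day or set. Reads with several alignments count to no gene, so near-identical genes are uncertain.

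Counts were fitted in R 4.3.3 with edgeR 4.0.16 (filterByExpr with a smallest count of 10 and total of 15, TMM, robust quasi-likelihood test), with all libraries of a tissue in 1 fit. A joint fit covered DRG and paw, and another the 12 vehicle libraries. The SE is the fold change divided by the square root of F. Adjusted p-values run over all genes tested, at a threshold of 0.05. DESeq2 1.42.0, RLE scaling, no filter, fits on the compared groups, a replicate block and leaving out each replicate were alternatives. The method was tested on simulated data, with changes set only into well-counted genes, and its results are not given here. It therefore says nothing of genes as low as Ntf3, Gdnf and Artn in DRG. In 0 of 19 comparisons did every pair of same-numbered libraries correlate over 0.1 in its deviations from the group means, so replicate numbers were not taken to pair libraries. Between DRG PTX days 2 and 35 and days 7 and 35, which were compared only in the test of any difference among days, all 3 did, at 0.196 to 0.315. No 2 libraries of a group were alike within sampling noise. DESeq2's shares of genes called are over the genes to which it gave an adjusted p.

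All 8 listed genes are named in each tissue, partners only where called (at most 4 per list and comparison), and the 3 most alike genes per listed gene with mean log2 CPM (prior count 2) of at least 1, without predicted models. The listed genes and the partner and marker lists were chosen with earlier results of these data known. Promoter sequences are RefSeq's, on a build other than that of the counts, and no count was tied to a coordinate.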

Additional observations from a re-analysis of the deposited data

How the results depend on the processing

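Counts of listed genes called kept within 1.5 times of the reported count in 279 of 293 recomputations. Those that moved went to 1 under DESeq2 in DRG at day 7, in paw at days 7 and 22, in paw for any difference among days and in DRG minus paw at day 22. With only the groups compared they went to 1 in paw at day 7 and in cord set A at day 7, and to 2 in set B against set A. Leaving out 1 replicate gave 0 to 1 in DRG at day 22 and for any difference among days, 0 to 2 in paw at day 22 and 0 to 1 in DRG minus paw at day 22. The log2 fold change of Ngfr in vehicle paw against cord became 0.41 with the cord of day 7 only. The replicate block left 0 listed genes called in each comparison of PTX with vehicle and for any difference among days, and took the call of Ntrk3 in set B against set A, at an edgeR adjusted p of 0.0557. Of 1962 recomputed fold changes 1828 kept direction and side of the threshold. Counts over all genes moved by over 1.5 times in 106 of 293: DESeq2 gave 877 where edgeR gave 24 in DRG at day 7, 154 for 32 at day 35 and 44 for 0 at day 22, and in paw 1297 for 170 at day 22, 630 for 0 at day 7 and 1628 for 0 for any difference among days. The compared groups alone gave 203 in paw at day 7 and 1739, for 0, in cord set A at day 7. DESeq2 also gave 184 for 3 in DRG for any difference among days, 37 and 23 for 0 in paw at days 2 and 35, 172 and 621 for 0 in cord set A at days 1 and 7, 401 for 172 and 57 for 14 in set B at days 22 and 35, and 346 for 32, 260 for 4 and 13 for 3 in DRG minus paw at days 7, 22 and 35. The compared groups alone gave 0 for 24 and 11 for 32 in DRG at days 7 and 35, 41 for 172 and 0 for 14 in set B, and 435 for 5210 in set B against set A. In paw at day 22 RLE scaling gave 51, the replicate block 75, the compared groups alone 0 and leaving out 1 replicate 0 to 1255. In DRG at day 7 the replicate block gave 155 and leaving out 1 replicate 0 to 1175. The cause was not tested. Depth limits Artn and Gdnf most, at as few as 0 and 3 reads in a DRG library.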
